A study of Mus musculus with 20 samples.

Results

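The amino acid transporters of the array were taken as all genes whose name in the deposited annotation begins with Slc1a, Slc3a, Slc6a, Slc7a, Slc36a, Slc38a or Slc43a, with Slc7a10 included. They were 63 genes of 30199 named genes on the array, covered by 83 probes, and the brightest probe stood for each gene. The choice used gene names and mean brightness over all arrays, and no difference between groups. Of the 63 genes, 32 were tested, meaning that at least 3 of 4 printed features of the probe were well above background on both arrays of at least 1 group. Another 27 were above background on no array and 4 on some arrays without meeting that rule. No carrier probe was saturated.

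RNA of sorted CD4 T cells was measured on 20 single-colour arrays, 1 for each sorted sample. All mice were of the strain B6.Cg-Foxp3<tm1Mal>, which reports Foxp3 by green fluorescent protein, were 8 to 14 weeks old and of mixed sexes, and each sample pooled 8 to 15 of them. Naive T, follicular helper T (TFH), regulatory T (Treg) and follicular regulatory T (TFR) cells came from peripheral lymph nodes (pLN) after immunisation with keyhole limpet hemocyanin in alum, on day 12 (d12, 2 arrays for each group) or day 25 (d25, 1 array for each group). TFH cells with and without the GL7 epitope, Treg and TFR cells came from Peyer's patches (PP, 2 arrays for each group), the gut lymphoid organs that form germinal centres without injected antigen. TFH cells of pLN were GL7+, TFR cells were taken irrespective of GL7, and no naive cells of PP were measured. The labels give immunisation for pLN only, so that tissue and immunisation cannot be told apart. By gate, naive T cells were GFP- PD1lo GL7-, Treg cells GFP+ PD1lo GL7-, TFH cells GFP- PD1hi and TFR cells GFP+ PD1hi.

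The 20 arrays lay on 5 slides. Slide 1 held the first and slide 2 the second array of each pLN d12 group, slide 3 the pLN d25 groups, and slides 4 and 5 the first and second array of each PP group. No slide held both tissues or both days, so slide cannot be told apart from tissue or from day. RNA input for labelling was 50 ng for the arrays of slides 1 and 4, and 40 ng for all other slides. All 6 T cell markers were detected on all arrays. The 5 regulatory markers summed to 963 to 1225 units of normalised intensity in naive T, 13579 to 20658 in TFH and 58481 to 109464 in Treg and TFR cells. The 5 follicular markers summed to 20062 to 88101 in naive T and Treg cells and to 139943 to 616524 in TFH and TFR cells. The 13 B cell markers summed to 88007 to 610405 units of normalised intensity on the 4 arrays of slide 4 and to 12447 to 72804 on the other 16, with all 13 detected on slide 4. The 8 epithelial markers summed to 6237 to 14385 on slide 4 and to 816 to 2703 elsewhere. Within slide 4 the B cell sum was highest in the TFR array (610405) and the epithelial sum in the Treg array (14385). For the carriers, PP results are therefore given also without slide 4 where this changes a call, or are named as lost without it. Leaving slide 4 out leaves 1 array in each PP group. For a lost call, fewer arrays and the content of slide 4 therefore cannot be told apart. For the other genes of amino acid handling, results without slide 4 were not examined. The 7 myeloid markers moved as a sum with the follicular populations in pLN as well, with 3 to 6 of them detected on each array there. They summed to 9146, 7025 and 5476 in TFH and 1680, 2193 and 1078 in naive T cells on slides 1 to 3, and to 4350, 3492 and 2811 in TFR and 1586, 1884 and 1026 in Treg cells. In PP they summed to 9941 and 3092 in TFR and 6045 and 876 in Treg cells. Of the 7, Lyz2, Csf1r and Cd68 were detected on all arrays, and the mean of Cd68 was 4569 in TFH and 550 in naive T cells of pLN d12. Cd14 was detected on 1 array of TFH cells and no other. The part of other cell types in the results was not tested.

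Amino acids cross the T cell membrane through carriers of several gene families, and naive T cells that meet antigen are known to raise uptake of leucine, glutamine and other amino acids, which mTORC1 senses. Large neutral amino acids pass through system L, made of the light chain Slc7a5 (LAT1) bound to the heavy chain Slc3a2 (CD98) and of the single-chain carriers Slc43a1 (LAT3) and Slc43a2 (LAT4). Glutamine and small neutral amino acids enter through Slc1a5 (ASCT2) and the sodium-coupled Slc38a1 and Slc38a2, arginine and lysine through Slc7a1, and the SLC6 family carries glycine, taurine, creatine and neurotransmitters. Slc7a10 (Asc-1) is a light chain that exchanges small neutral amino acids such as serine, glycine and alanine, and is best known from brain and fat.

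Promoters are shown for Slc43a1, which had the lowest p of the F test given below, for its relative Slc43a2 and for Slc7a10, each called in at least 3 comparisons. Those of Slc6a8 and Slc43a3, called more often than the last 2, are not printed. The windows are from RefSeq on GRCm38.p6, each running from 250 bases before the gene start to 50 after it. They were searched on both strands for CACGTG, the E-box of MYC and related factors, and for TTGCATCA, a core of the amino acid response element of ATF4, and capitals mark a match.
Slc43a1 (chr2:84840073-84840372, plus strand): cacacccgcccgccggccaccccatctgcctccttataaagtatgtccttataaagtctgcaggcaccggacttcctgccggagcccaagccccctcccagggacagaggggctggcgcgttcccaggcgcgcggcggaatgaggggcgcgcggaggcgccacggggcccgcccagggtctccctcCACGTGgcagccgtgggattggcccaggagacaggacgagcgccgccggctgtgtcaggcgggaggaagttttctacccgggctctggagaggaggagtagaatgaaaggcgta
Slc43a2 (chr11:75531444-75531743, plus strand, the first of its 2 listed starts): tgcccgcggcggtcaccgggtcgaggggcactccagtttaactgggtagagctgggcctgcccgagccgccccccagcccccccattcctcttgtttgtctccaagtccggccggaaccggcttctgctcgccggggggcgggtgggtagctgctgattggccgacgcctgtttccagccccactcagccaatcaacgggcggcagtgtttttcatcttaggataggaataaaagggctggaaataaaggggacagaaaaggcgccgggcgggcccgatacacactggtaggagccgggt
Slc7a10 (chr7:35186135-35186434, plus strand): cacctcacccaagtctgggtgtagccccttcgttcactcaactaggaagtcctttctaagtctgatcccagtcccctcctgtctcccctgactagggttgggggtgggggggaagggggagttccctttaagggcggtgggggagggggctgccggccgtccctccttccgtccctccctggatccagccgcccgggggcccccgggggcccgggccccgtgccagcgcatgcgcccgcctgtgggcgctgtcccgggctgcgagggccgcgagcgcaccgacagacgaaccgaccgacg
The window of Slc43a1 held 1 CACGTG, and the other windows held neither run of letters. CACGTG occurred in 7.15% of all 32851 promoters of this length and in those of 9 of the 45 transporter genes with an entry. TTGCATCA occurred in 0.895% of all promoters and in those of Slc1a4, Slc7a7 and Slc7a11. For both motifs the percentage counts windows, while the transporters are counted as genes, some of which have over 1 window. The counts therefore cannot be compared as shares.

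Across the 12 groups, limma's F test called 11 of the 32 tested carriers as different (p under 0.001 and adjusted p under 0.005), against 17.3% of all tested probes. They were Slc1a6, Slc6a8, Slc6a9, Slc6a13, Slc7a1, Slc7a10, Slc36a4, Slc38a1, Slc43a1, Slc43a2 and Slc43a3. Without the arrays of slide 4, which leaves 1 array in each PP group, the test called fewer carriers. In the 12 comparisons below, the call asked for an adjusted p below 0.05 and a log2 difference of 1 or more, and 14 of the 32 (43.8%) were called in at least 1 comparison, beside 25.9% of all tested probes. There were 39 such calls, and in none of them did the arrays of both groups overlap, as was so for 100% of the calls over all probes.

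In pLN d12, 7 carriers were higher and 1 lower in TFH than in naive T cells, 8 of 32 (25%). Of all probes, 14.7% were called in that comparison, 9.27% higher and 5.48% lower. In PP, 8 were higher and 1 lower in TFR than in Treg cells, 9 of 32 (28.1%), where 9.25% of all probes were called, 6.23% higher and 3.02% lower. The same step in pLN d12 gave 4 higher carriers (8.35% of all probes called, 5.79% higher and 2.56% lower). TFR against TFH cells of pLN d12 gave 2 higher and 1 lower (5.01%, with 2.81% higher and 2.2% lower). Treg and naive T cells of pLN d12 differed in 2 carriers, both higher in Treg cells (3.76%, with 2.86% higher and 0.898% lower). Slc43a1 and Slc6a8 were called in 5 of the 12 comparisons each, the most of any carrier.

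**Figure D1:**
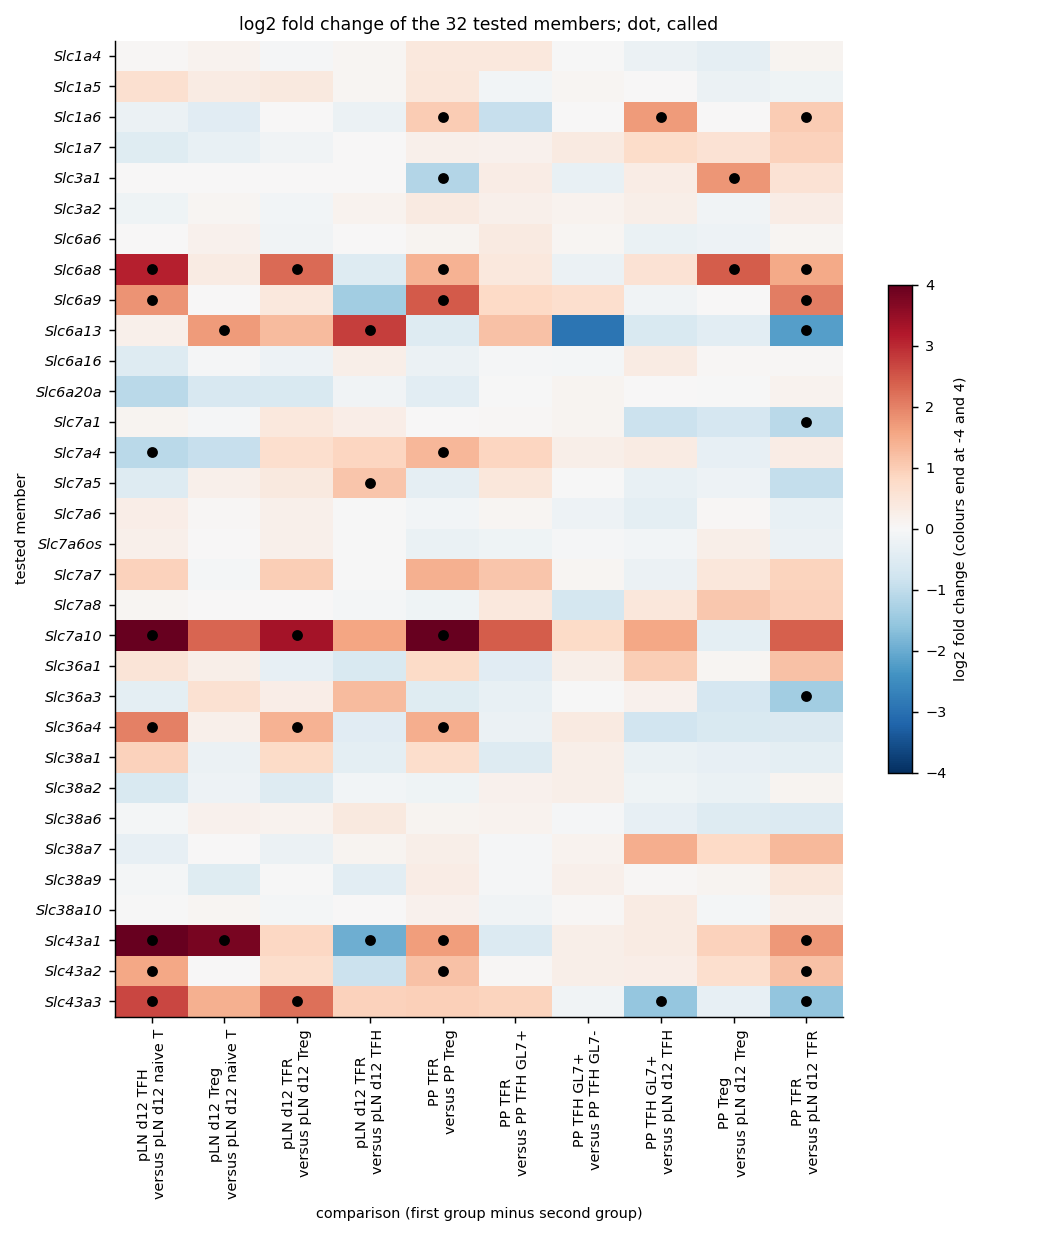
log2 fold change of each of the 32 tested carriers (rows) in 10 comparisons between groups (columns, first group minus second group), from limma; red is higher and blue lower in the first group, and a black dot marks a call. Slc43a1 is at least 31.4-fold higher in TFH than in naive T cells of pLN d12, which are below background, and Slc7a10 reaches 6.12 in TFR against Treg cells of PP, while 18 rows hold no call.

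The median log2 difference of the 32 carriers was 0.05 between TFH and naive T cells and 0.28 between TFR and Treg cells of PP, beside -0.09 and -0.05 over all tested probes. Of the 32 carriers, 18 were called in no comparison. Since sorted populations were measured in bulk, more RNA per cell and more cells with the transcript cannot be told apart.

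All 3 members of the SLC43 family were called by the F test. Slc43a1 (LAT3, a facilitative carrier of branched-chain amino acids and phenylalanine; probe on mm9 at chr2:84703578-84703637) was not above background in naive T cells, at the floor of 20 on both d12 arrays and on the d25 array. It read 2361 and 1584 in pLN d12 TFH cells, 288 and 272 in Treg cells and 499 and 502 in TFR cells. In PP it read 2476 and 2337 in GL7+ TFH, 1954 and 2099 in GL7- TFH, 554 and 499 in Treg and 1558 and 1771 in TFR cells. All groups were thus ordered in the same way on both of their slides, with TFH cells at the top in either tissue, then TFR, then Treg and last naive T cells.

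Slc43a1 was at least 31.4-fold higher in TFH than in naive T cells (measured log2 fold change 6.60, SE 0.19, adjusted p 1.16e-07 by limma) and at least 4.55-fold higher in Treg than in naive T cells (adjusted p 5.4e-06). TFR cells of pLN d12 fell short of TFH cells by a log2 difference of -1.95 (SE 0.19, adjusted p 0.000228). TFR exceeded Treg cells by 1.66 in PP (SE 0.19, adjusted p 0.000334), and by 0.84 in pLN d12 (adjusted p 0.0167), which was under the fold required for a call. The TFR level was 1.73 higher in PP than in pLN d12 on the log2 scale (SE 0.19, adjusted p 0.000485), and the PP Treg level was 0.91 higher (adjusted p 0.0332, under the fold required). The day 25 arrays, with 1 array for each population, read 2247 in TFH, 258 in Treg and 456 in TFR cells, close to those of day 12.

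Slc43a2 (LAT4, the nearest relative of Slc43a1 among these carriers; chr11:75387219-75387278) was above background on all 20 arrays and had a smaller range. It read 927 and 1043 in naive T, 3031 and 2746 in TFH, 899 and 1092 in Treg and 1462 and 1745 in TFR cells of pLN d12. It was higher in TFH than in naive T cells by 1.55 (log2, SE 0.22, adjusted p 0.000583), and Treg and naive T cells overlapped. In PP the values were 3232 and 3789 in GL7+ TFH, 2600 and 3350 in GL7- TFH, 1536 and 1625 in Treg and 3003 and 4265 in TFR cells. TFR cells of PP exceeded Treg cells of PP by 1.18 (SE 0.22, adjusted p 0.00546) and TFR cells of pLN d12 by 1.16 (SE 0.22, adjusted p 0.00595). Without the second PP TFR array both differences fell under the fold required for a call, at 0.93 and 0.91, and the latter lost its call without the first pLN d12 TFR array as well (1.04, adjusted p 0.0552). The 2 TFR arrays of PP lay on either side of the 2 GL7+ TFH arrays, with a difference of 0.03 (SE 0.22).

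Slc43a3, a family member known to carry purine nucleobases rather than amino acids, lies next to Slc43a1, with its probe 94.4 kb away (chr2:84797987-84798046), but had a different order of groups. In pLN d12 it read 487 and 295 in naive T, 2905 and 2015 in TFH, 1374 and 738 in Treg and 5741 and 3680 in TFR cells. Here TFR cells had the highest arrays, and TFH exceeded naive T cells by 2.67 (log2, SE 0.37, adjusted p 0.000551) and TFR exceeded Treg cells by 2.19 (SE 0.37, adjusted p 0.00399). In PP all 8 arrays lay between 692 and 1703. Slc43a3 was lower in PP than in pLN d12 in TFR cells (-1.58, SE 0.37, adjusted p 0.0166) and in GL7+ TFH cells (-1.54, SE 0.37, adjusted p 0.039). Both tissue calls were lost without slide 4, at -1.43 (adjusted p 0.16) and -1.27 (adjusted p 0.314). For TFR cells the call was also lost without the first pLN d12 TFR array (-1.26, adjusted p 0.129), the first PP TFR array (-1.43, adjusted p 0.0928) or the second (-1.73, adjusted p 0.0503). For TFH cells it was lost without any 1 of the 4 arrays compared, with values between -1.81 and -1.27. The Treg arrays of both tissues overlapped.

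**Figure D2:**
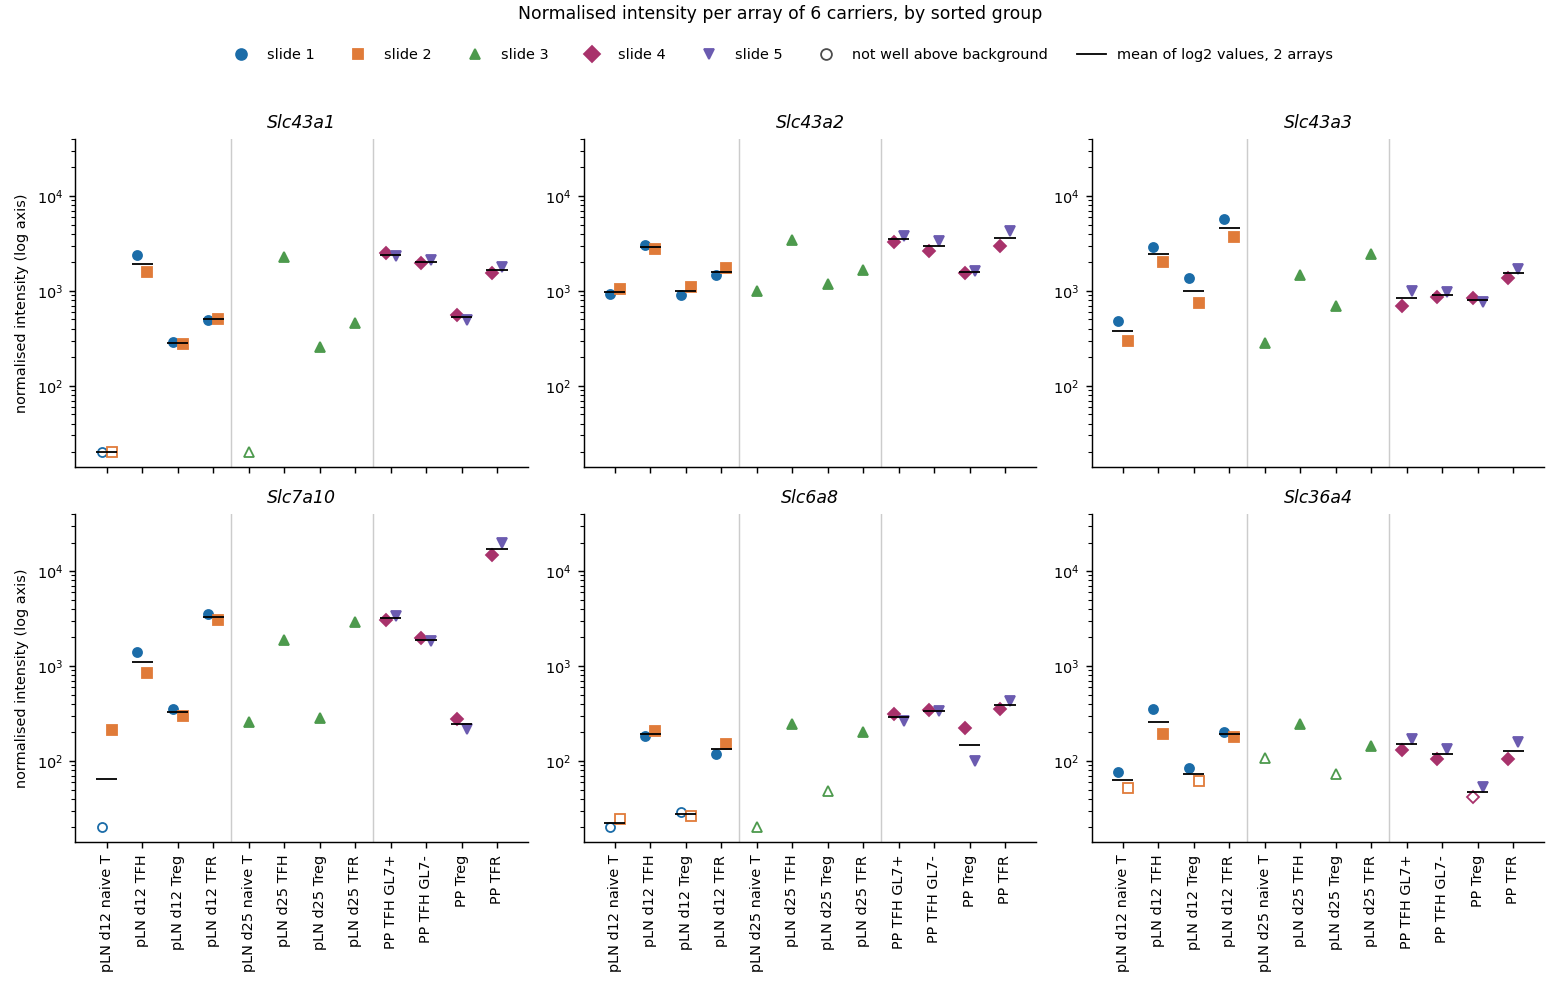
Normalised intensity (log axis) of Slc43a1, Slc43a2, Slc43a3, Slc7a10, Slc6a8 and Slc36a4 on each of the 20 arrays by sorted group; marker shape and colour give the slide, open markers are not well above background, and black lines are the mean of the log2 values of 2 arrays. Slc43a1 sits at the floor of 20 in naive T cells and at 1584 to 2476 in GL7+ TFH cells, and Slc7a10 reaches 14941 and 19558 in PP TFR cells.

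Slc7a10 (Asc-1; chr7:35985868-35985927) had its highest readings in PP TFR cells, 14941 and 19558. Treg cells of PP read 276 and 220, GL7+ TFH cells 3034 and 3351 and GL7- TFH cells 1959 and 1831. In pLN d12 the arrays read 3557 and 3032 in TFR, 1423 and 840 in TFH, 351 and 301 in Treg and 20 and 211 in naive T cells, and the first naive T array was not above background. The order from Treg over TFH to TFR cells was the same on all 5 slides, with 281, 1900 and 2920 on the d25 slide.

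TFR exceeded Treg cells by 6.12 in PP (log2, SE 0.80, adjusted p 0.000788) and by 3.34 in pLN d12 (SE 0.80, adjusted p 0.0229). The PP difference was 5.76 on slide 4 and 6.48 on slide 5, where the B cell sum was 15721 to 38901, and without slide 4 it was 6.48 with an adjusted p of 0.0816. The pLN difference was 3.34 on slide 1, 3.33 on slide 2 and 3.38 on slide 3, and without any 1 of its 4 arrays its adjusted p lay between 0.0884 and 0.128. The 2 naive T arrays, which enter the estimate of spread, lay far apart. TFH exceeded naive T cells by 4.07 (SE 0.80, adjusted p 0.00462), a value that includes the naive T array at the floor. On slide 1 the difference is known only as at least 34.6-fold, and on slide 2 it was 1.99 on the log2 scale. Without the first naive T array it was 2.37 (adjusted p 0.00146). On the d25 slide the TFH array exceeded the naive T array by 2.88. TFR cells of PP were higher than TFR cells of pLN d12 by 2.38 (SE 0.80, adjusted p 0.0695) and than GL7+ TFH cells of PP by 2.42 (adjusted p 0.182), and neither difference was called although the arrays did not overlap. After another background correction (normexp) both were called, at 2.34 (adjusted p 0.005) and 2.37 (adjusted p 0.0124).

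The heavy chain Slc3a2 and the classical system L light chain Slc7a5 were called less widely, Slc3a2 in no comparison and Slc7a5 in 1. Slc3a2 lay between 14749 and 34838 on all arrays, and its groups overlapped in each of the 10 comparisons between groups. Slc7a5 read 1179 and 1292 in naive T, 758 and 1003 in TFH, 1391 and 1465 in Treg and 2030 and 1745 in TFR cells of pLN d12. TFH cells thus had the lowest arrays in pLN d12, as they did on the d25 slide (934). Slc7a5 was higher in TFR than in TFH cells of pLN d12 by 1.11 (log2, SE 0.23, adjusted p 0.0159), and its difference between TFH and naive T cells was -0.50 (adjusted p 0.168). The TFR call was lost without the first TFH array (0.91, adjusted p 0.149), without the first TFR array (1.00, adjusted p 0.134) and without the second (1.22, adjusted p 0.0612), and a second, dimmer Slc7a5 probe gave 0.56 (adjusted p 0.78). In PP, Slc7a5 read 635 and 789 in GL7+ TFH, 591 and 875 in GL7- TFH, 1148 and 1326 in Treg and 1026 and 913 in TFR cells. PP TFR cells differed from pLN d12 TFR cells by -0.96 (adjusted p 0.0172), under the fold required, and without slide 4 the difference of -1.04 was called (adjusted p 0.0457). Slc7a8 (LAT2) was above background on 4 of 20 arrays, all from PP, at 39 to 90. Of these, 3 were on slide 4 and 1 on slide 5. PP Treg cells read 90 on slide 4 and 20 on slide 5. The epithelial markers were highest in the same PP Treg array of slide 4, and their part in this value was not tested.

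**Figure D3:**
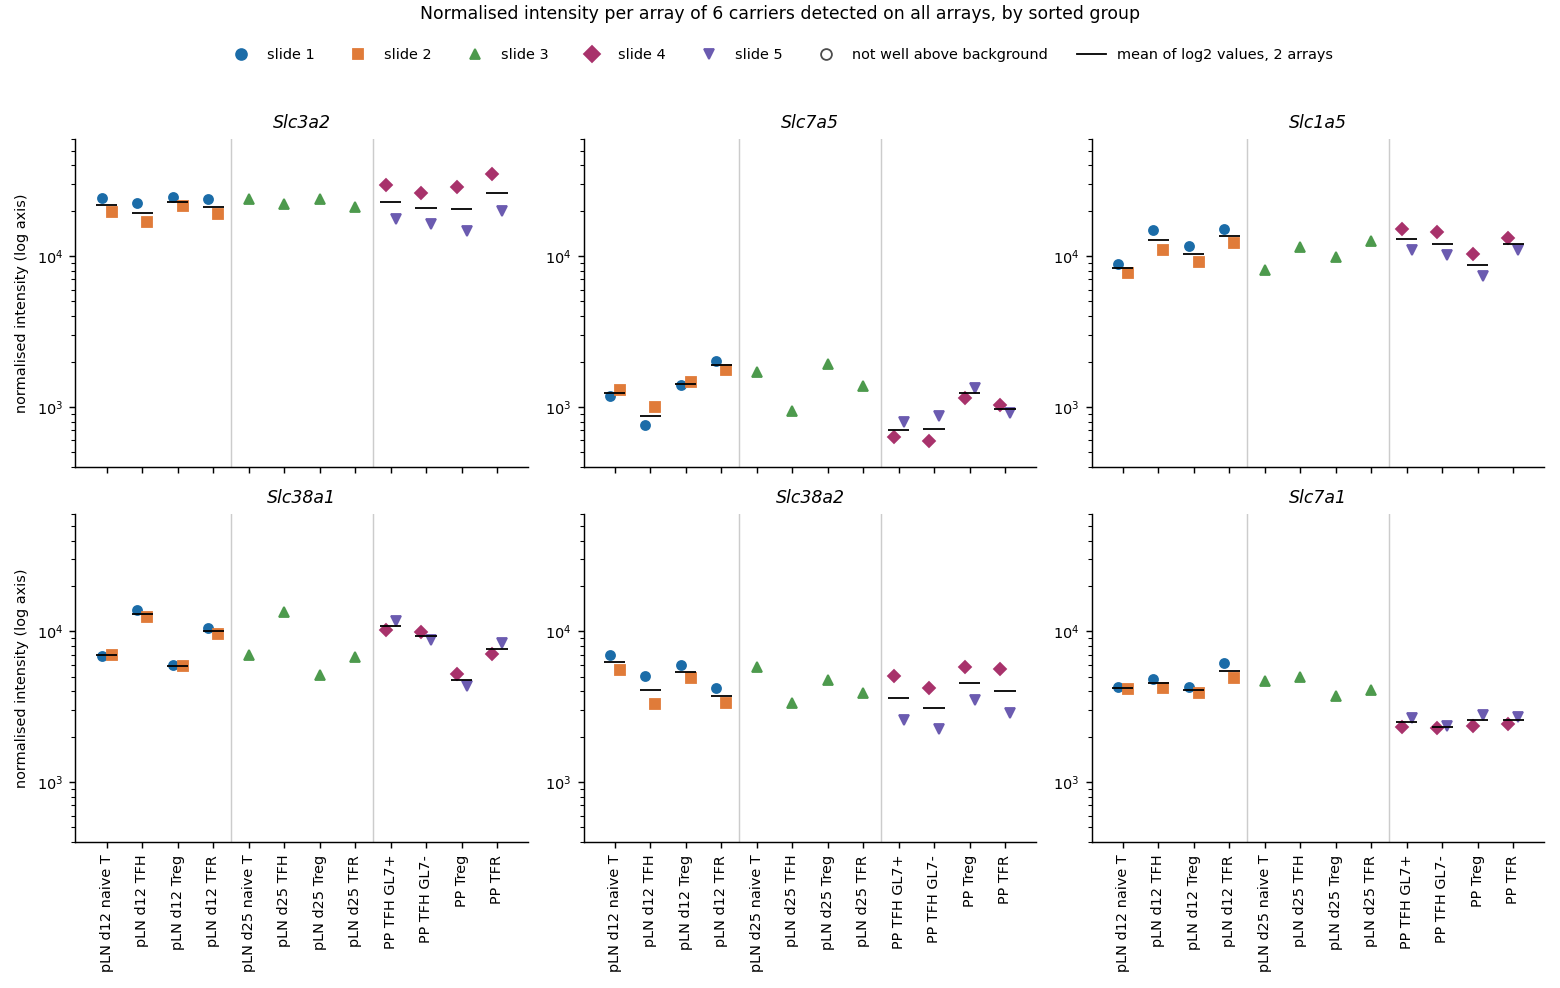
Normalised intensity (log axis) on each of the 20 arrays, by sorted group, of 6 carriers detected on all arrays; marker shape and colour give the slide and black lines the mean of the log2 values of 2 arrays. Slc38a1 is higher in both TFH and TFR cells than in Treg cells of the same slide, Slc7a5 is lower in TFH than in the other cells of pLN d12, Slc7a1 is lower in all PP groups, and the arrays of Slc3a2 overlap between groups.

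Among the SLC6 carriers, the creatine transporter Slc6a8 (chrX:70927775-70927834) was not above background in naive T cells of pLN (20, 25 and 20) or Treg cells of pLN (29, 26 and 48). It was detected in pLN d12 TFH (181 and 206) and TFR cells (119 and 153) and in every PP group. It was at least 3.14-fold higher in TFH than in naive T cells (adjusted p 8e-05) and at least 2.62-fold higher in TFR than in Treg cells of pLN d12 (adjusted p 0.00157). PP Treg cells read 221 and 100, which was at least 2.89-fold above pLN d12 Treg cells (adjusted p 0.0034, and 0.0582 with slide as a random block). PP TFR cells, at 350 and 433, exceeded PP Treg cells by 1.39 (log2, SE 0.32, adjusted p 0.0178) and pLN d12 TFR cells by 1.53 (SE 0.32, adjusted p 0.00999). The first of these 2 differences was 0.67 on slide 4 and 2.11 on slide 5. It was not called without the second PP Treg array (0.82) or the second PP TFR array (1.24, adjusted p 0.105). The second was not called with slide as a random block (adjusted p 0.0808), without the first pLN d12 TFR array (1.35, adjusted p 0.0807) or without the second PP TFR array (1.38, adjusted p 0.0629).

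Slc6a9, the glycine transporter GlyT1, was near background, with 7 of 20 arrays above it. PP TFR cells read 97 and 125, at least 3.24-fold more than PP Treg cells, which sat at the floor of 20 (adjusted p 0.0022), and at least 1.97-fold more than pLN d12 TFR cells (adjusted p 0.00606). pLN d12 TFH cells read 108 and 45, at least 1.13-fold more than naive T cells (adjusted p 0.00739). A second tested probe of the gene was called in the same 3 comparisons and direction, and in addition as lower in TFR than in TFH cells of pLN d12 (adjusted p 0.0469). Without slide 4 neither PP call of the main probe held (adjusted p 0.0997 and 0.0697), and the tissue call was also lost without the second pLN d12 TFR array (adjusted p 0.0523).

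Slc6a13 (GAT2, a carrier of GABA and taurine) was higher in the Foxp3-reporter-positive populations of pLN. It read 61 and 55 in naive T and 61 and 73 in TFH cells, 214 and 167 in Treg and 543 and 381 in TFR cells of pLN d12, and 78, 66, 152 and 293 in the same order on the d25 slide. TFR exceeded TFH cells by 2.77 (log2, SE 0.41, adjusted p 0.00265). Treg cells were at least 2.53-fold above naive T cells (adjusted p 0.0444), a call lost without any 1 of the 4 arrays (adjusted p between 0.118 and 0.325). In PP the pattern was another one, with 226 and 492 in GL7- TFH, 31 and 63 in GL7+ TFH, 137 and 145 in Treg and 85 and 115 in TFR cells. TFR cells of PP were lower than those of pLN d12 by a log2 difference of -2.21 (SE 0.41, adjusted p 0.00579), which was -1.95 (adjusted p 0.0534) without the first pLN d12 TFR array. Between GL7+ and GL7- TFH cells, Slc6a13 differed by -2.92 (SE 0.41), and its adjusted p was 0.124. The difference was -2.88 on slide 4 and -2.96 on slide 5, and the adjusted p was 0.0256 with slide as a fixed block.

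Between GL7+ and GL7- TFH cells of PP none of the 32 carriers was called by limma in the main fit (0.00898% of all probes were called, all lower). By limma, 1 had an unadjusted p under 0.05, namely Slc6a13. An unpaired t-test called none after adjustment, but it called none in any comparison and cannot decide. The taurine transporter Slc6a6 lay between 5223 and 9260 on all arrays and was called in no comparison. Glycine, proline and neutral amino acid carriers of nerve, kidney and gut in this family (Slc6a5, Slc6a7, Slc6a14, Slc6a15, Slc6a17, Slc6a18, Slc6a19 and Slc6a20b) were above background on no array.

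Slc36a4 (PAT4, a carrier of proline and tryptophan) was higher in the PD1hi follicular populations of both lineages. It read 352 and 190 in TFH, 202 and 180 in TFR, 84 and 62 in Treg and 77 and 52 in naive T cells of pLN d12, with the second Treg and naive T arrays not above background. TFH exceeded naive T cells by 2.03 (log2, SE 0.34, adjusted p 0.00188), TFR exceeded Treg cells by 1.40 in pLN d12 (SE 0.34, adjusted p 0.0256) and by 1.44 in PP (SE 0.34, adjusted p 0.0216). The TFR minus Treg difference lay between 1.00 and 1.55 on each of the 5 slides. It lost its call in pLN without any 1 array (adjusted p between 0.0566 and 0.177) and in PP without slide 4 (1.55, adjusted p 0.186), without either PP Treg array (1.25 and 1.62) or without the second PP TFR array (1.14). Slc36a1 (PAT1, a lysosomal amino acid exporter) was called in no comparison of the main fit. It read 2028 and 1290 in PP TFR cells and 838 and 625 in pLN d12 TFR cells. With slide as a random block, limma called that difference (1.16, adjusted p 0.0286). Slc36a3 was lower in PP than in pLN d12 TFR cells (51 and 54 against 135 and 143, adjusted p 0.0257), a call lost without any 1 of the 4 arrays (adjusted p between 0.0862 and 0.116), without slide 4 (adjusted p 0.0927) and with slide as a random block (adjusted p 0.0894).

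**Figure D4:**
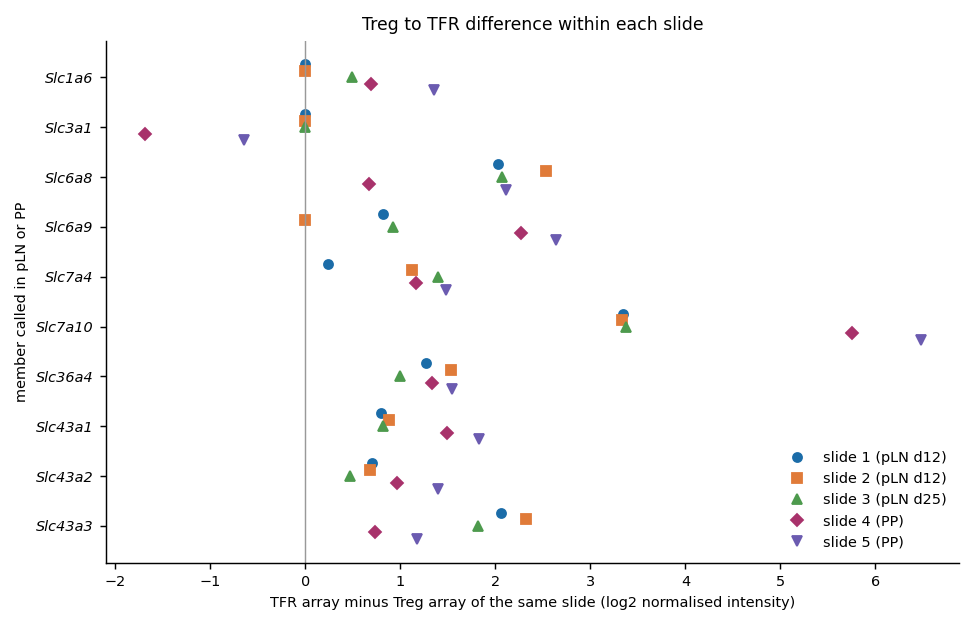
Difference between the TFR array and the Treg array of the same slide (log2 normalised intensity, horizontal axis) for the 10 carriers called in this step in pLN d12 or PP; each marker is 1 slide. Slc7a10 lies at 3.33 to 3.38 on the 3 pLN slides and at 5.76 and 6.48 on the 2 PP slides, and Slc36a4 and Slc43a2 are above 0 on all 5.

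None of the glutamine carriers was called in a comparison of the main fit, while the F test over all groups called Slc38a1. Slc38a1 (SNAT1) read 13800 and 12393 in TFH and 10440 and 9593 in TFR cells of pLN d12 against 6896 and 6955 in naive T and 5977 and 5849 in Treg cells. It was higher in TFH than in naive T cells by 0.92 (log2, SE 0.16, adjusted p 0.00259) and in TFR than in Treg cells by 0.76 in pLN d12 (adjusted p 0.0136) and 0.69 in PP (adjusted p 0.0204), all under the fold required for a call. Of its 2 other tested probes, A_52_P232648 gave 1.25 (adjusted p 0.009) and 1.09 (adjusted p 0.029) in the 2 pLN comparisons, which would count as calls, and A_55_P2161640 gave 0.59 and 0.32. Slc38a2 (SNAT2) gave -0.61 between TFH and naive T cells (SE 0.46, adjusted p 0.44). Slc1a5 (ASCT2) lay between 7431 and 15109 on all arrays and was 0.63 higher in TFH than in naive T cells (adjusted p 0.161). Slc1a4, Slc38a6, Slc38a7, Slc38a9 and Slc38a10 were above background on all arrays and called in no comparison of the main fit. Slc38a7 read 1231 to 1446 on slide 4 and 611 to 798 on slide 5, against 354 to 585 on the pLN arrays. With slide as a random block, limma called Slc38a7 higher in PP than in pLN d12. The difference was 1.46 in GL7+ TFH cells (adjusted p 0.0357) and 1.29 in TFR cells (adjusted p 0.024). Slc38a3, Slc38a4, Slc38a5 and Slc38a8 were above background on no array.

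Among the cationic carriers, Slc7a1 (CAT1, the main arginine importer of T cells) read 2292 to 2792 on the 8 PP arrays and 3741 to 6117 on the 12 pLN arrays, which did not overlap. It was lower in PP than in pLN d12 TFR cells by a log2 difference of -1.09 (SE 0.17, adjusted p 0.00285), which fell under the fold required without the first pLN d12 TFR array (-0.92). The same difference was -0.86 in GL7+ TFH cells (adjusted p 0.019) and -0.66 in Treg cells (adjusted p 0.0849), neither a call. Slc7a4, a relative of the cationic carriers, read 185 and 157 in naive T and 72 and 89 in TFH cells (-1.09, SE 0.25, adjusted p 0.0121), and the call was lost without the first array of either group (-0.97 and -0.93). In PP it was 1.32 higher in TFR than in Treg cells (SE 0.25, adjusted p 0.00704), which missed the threshold without slide 4 (1.48, adjusted p 0.0991) and without the second PP TFR array (1.16, adjusted p 0.0578). Slc7a7 (y+LAT1) gave 1.44 between TFR and Treg cells of PP (adjusted p 0.262) with overlapping arrays. The TFR and Treg arrays read 1038 and 708 on slide 4 and 599 and 120 on slide 5, and with slide as a fixed block the difference was called (adjusted p 0.0336). Slc7a2, Slc7a3 and Slc7a14 were above background on no array.

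PP and pLN d12 were then compared within each population. Their arrays lay on different slides, so tissue and slide cannot be told apart in these differences. In TFR cells 5 carriers were higher and 4 lower in PP, 9 of 32 (28.1%), where 11.1% of all probes were called, 5.74% higher and 5.39% lower. In GL7+ TFH cells 1 was higher and 1 lower (4.54% of all probes called, 2.36% higher and 2.18% lower). In Treg cells 2 were higher (2.24%, with 1.82% higher and 0.422% lower). Slc43a1, Slc43a2, Slc6a8, Slc6a9 and Slc1a6 were higher and Slc43a3, Slc6a13, Slc7a1 and Slc36a3 lower in PP TFR cells. The count in TFR cells was 2 without the first and 6 without the second pLN d12 TFR array, 4 without the second PP TFR array and 6 without slide 4. Slc43a1 was called in all 4 leave-one-out fits of this comparison and without slide 4.

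A pair of these carriers was close to background. Slc1a6, a glutamate carrier of neurons, was above background only on PP arrays (5 of 20, at 51 to 83), and was at least 1.86-fold higher in GL7+ TFH cells of PP than in pLN d12 TFH cells (adjusted p 0.0103). It was at least 1.20-fold higher in PP TFR than in PP Treg cells (adjusted p 0.0469) and it was called higher in PP than in pLN d12 TFR cells (adjusted p 0.0387). The latter were at the floor, and no fold above 1 is measurable there. All 3 calls were lost without slide 4 (adjusted p 0.107, 0.168 and 0.0804), and each also without any of 3 of the 4 arrays compared. Both calls between the tissues were lost with slide as a random block (adjusted p 0.0941 and 0.191). Slc3a1, the heavy chain that pairs with Slc7a9 for cystine uptake in kidney and gut epithelium, was at the floor of 20 on all 12 pLN arrays. PP Treg cells read 85 on slide 4 and 53 on slide 5, which was at least 1.58-fold above pLN d12 Treg cells (adjusted p 0.0202). That call was lost without the first PP Treg array (adjusted p 0.126), without either pLN d12 Treg array (adjusted p 0.126 and 0.108) and with slide as a random block (adjusted p 0.122). TFR minus Treg cells of PP gave -1.17 (adjusted p 0.0423), and -0.65 without slide 4 (adjusted p 0.0944). This call was also lost without the first PP Treg array (-0.83, adjusted p 0.224) or either PP TFR array (-0.99 and -1.35). The epithelial markers were highest in the same PP Treg array of slide 4, and their part in these values was not tested.

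Whether the step from Treg to TFR cells differed between PP and pLN d12 was tested as a difference of differences. limma called none of the 32 carriers (0.548% of all probes were called, 0.346% higher and 0.202% lower), and 8 (25%) had an unadjusted p under 0.05, beside 8.17% of all probes. The values were 2.78 for Slc7a10 (SE 1.13, adjusted p 0.507), -1.78 for Slc6a13 (SE 0.57, adjusted p 0.317), 0.82 for Slc43a1 (SE 0.27, adjusted p 0.319) and -1.24 for Slc43a3 (SE 0.52, adjusted p 0.546). With slide as a fixed block, which compares TFR and Treg arrays of the same slide, 4 were called, namely Slc6a9, Slc6a13, Slc43a3 and Slc36a1. For Slc6a9, 3 of the 4 groups compared were below background, so that the size of its difference is not measurable and its call rests on the floor of 20. Between PP TFR and GL7+ TFH cells none was called (3.44% of all probes were called, 2.34% higher and 1.09% lower), with 7 (21.9%, beside 11.4% of all probes) at an unadjusted p under 0.05. The adjusted unpaired t-test called none here either, as in every comparison, and cannot decide. Between day 25 and day 12 over the 4 pLN populations none was called (0.0404% called, 0.0135% higher and 0.0269% lower), with 3 (9.38%, beside 9.42% of all probes) at an unadjusted p under 0.05.

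Some carriers differed between slides rather than between populations. Slc7a9, the light chain partner of Slc3a1, was above background on all 4 arrays of slide 4 (64 to 256) and at the floor of 20 on the other 16. The epithelial markers were highest on those same 4 arrays, and both were highest in the PP Treg array. The part of other cell types in these values was not tested. Slc38a11 read 236 to 423 on the 8 arrays of slides 2 and 3 and sat at the floor of 20 on the other 12. Slc7a6 (y+LAT2) read 116 to 172 on the 8 arrays labelled from 50 ng and 230 to 349 on the 12 labelled from 40 ng, without overlap. Its opposite-strand neighbour Slc7a6os, which matches the naming rule but is no carrier, read 856 to 1272 and 1279 to 1833. Slc1a4 (ASCT1) went the other way, at 3220 to 4385 with 50 ng and 1675 to 3075 with 40 ng. Input and slide cannot be told apart.

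**Figure D5:**
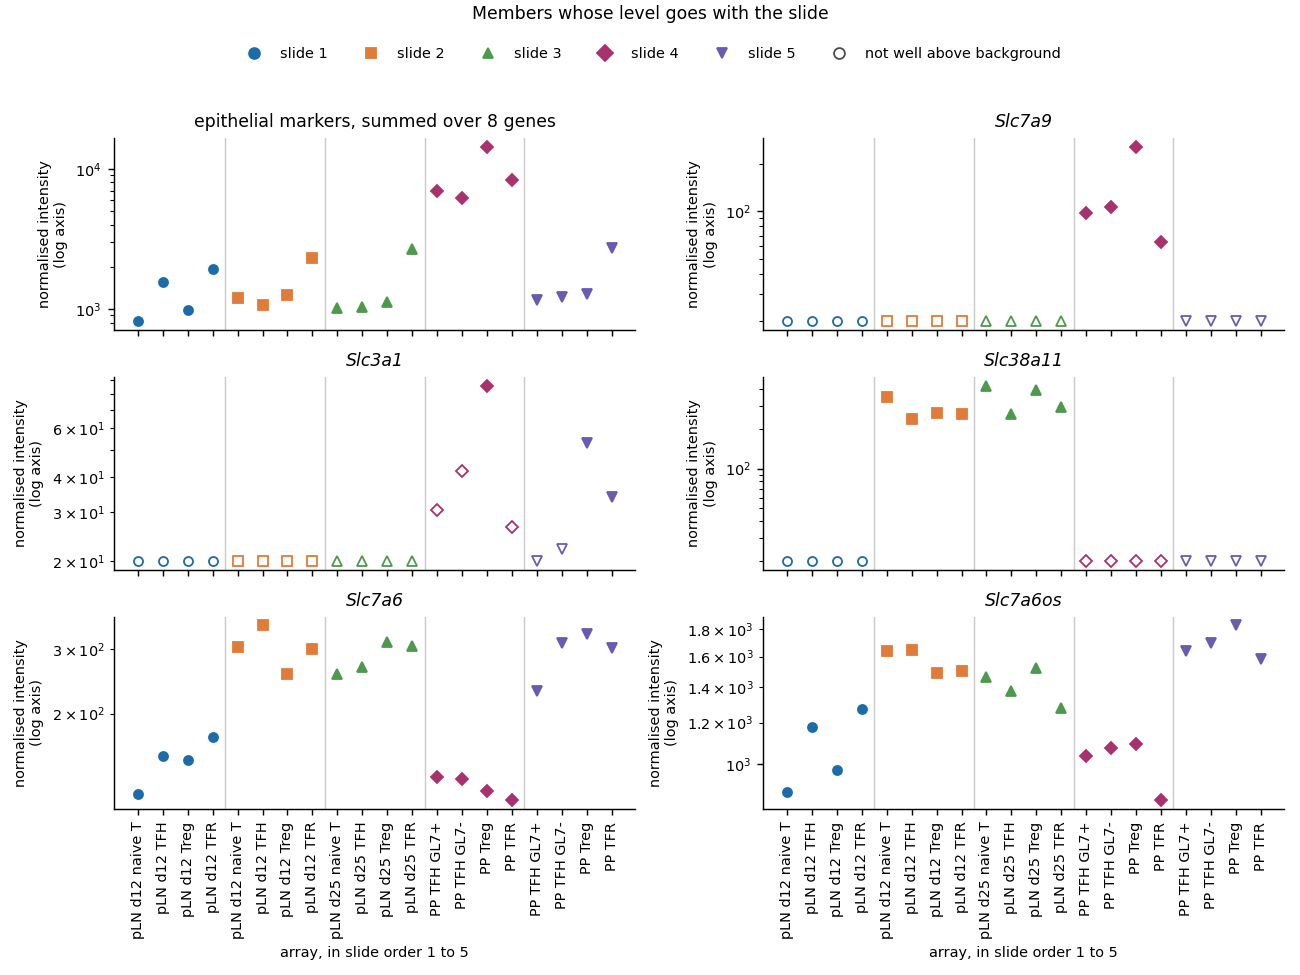
Normalised intensity (log axis) on each array in slide order, for the sum of 8 epithelial markers and for Slc7a9, Slc3a1, Slc38a11, Slc7a6 and Slc7a6os; marker shape and colour give the slide and open markers are not well above background. Slc7a9 is above background only on slide 4, where the epithelial sum is 6237 to 14385, and Slc38a11 only on slides 2 and 3.

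The other genes of amino acid handling were taken as 4 lists, and their PP calls were not examined without slide 4. Of 18 tested genes of the amino acid response, which ATF4 drives when amino acids run short, 3 were higher and 2 lower in TFH than in naive T cells, 27.8% beside 14.7% of all probes (median log2 difference 0.39, beside -0.09 over all probes). The higher genes were Chac1, a glutathione-degrading enzyme, at least 1.93-fold higher (adjusted p 0.00353), Asns, asparagine synthetase, at 2.25 (SE 0.35, adjusted p 0.00111), and Psat1, an enzyme of serine synthesis, at 1.95 (SE 0.24, adjusted p 0.000305). The lower ones were Trib3, a pseudokinase, at -1.39 (adjusted p 0.0152), and Ppp1r15a, a phosphatase subunit that relieves the translation block, at -1.31 (adjusted p 0.00224), both named after their values were seen. From Treg to TFR cells of pLN d12, 3 were higher and 1 lower (22.2%, beside 8.35% of all probes), with Asns at 2.57 (SE 0.35, adjusted p 0.00134) and Trib3 at -1.56 (adjusted p 0.0145). In PP, 2 were higher in TFR than in Treg cells (11.1%, beside 9.25%), Cebpb at 1.59 (adjusted p 0.001) and Psat1 at 1.31 (adjusted p 0.00596). Against pLN d12 TFR cells, 2 genes were lower in PP TFR cells, 11.1% beside 11.1% of all probes. They were Asns, by a log2 difference of -1.88 (SE 0.35, adjusted p 0.00589), and Phgdh, the first enzyme of serine synthesis, by -1.10 (adjusted p 0.00961). In GL7+ TFH cells 2 were lower in PP as well, 11.1% beside 4.54% of all probes. They were Chac1 at -1.97 (adjusted p 0.0277, some arrays below background) and Psat1 at -1.23 (adjusted p 0.0191).

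Of 32 tested genes of amino acid sensing by mTORC1, 1 was higher and 1 lower in TFH than in naive T cells, 6.25% beside 14.7% of all probes. Sesn1, a sestrin that restrains mTORC1, had a mean of 2545 in TFH against 12815 in naive T cells (-2.34, SE 0.27, adjusted p 0.000179). It was higher in TFR than in TFH cells of pLN d12 by 1.75 (adjusted p 0.00365) and of PP by 1.59 (adjusted p 0.00823), and lower in PP TFR than in PP Treg cells by a log2 difference of -1.39 (adjusted p 0.0076). Fnip2, a partner of folliculin, was at least 1.11-fold higher in TFH than in naive T cells (adjusted p 0.0159), and was also called higher in Treg than in naive T cells (adjusted p 0.0205).

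Of 24 tested enzymes of amino acid use, 3 were higher and 1 lower in TFH than in naive T cells, 16.7% beside 14.7% of all probes. The alanine aminotransferase Gpt2 was at least 5.28-fold higher (adjusted p 0.00153), the branched-chain aminotransferase Bcat1 at least 3.49-fold higher (adjusted p 0.00128), and Odc1, which starts polyamine synthesis, 2.34 higher on the log2 scale (SE 0.28, adjusted p 0.000236). Between TFR and Treg cells 4 were higher in pLN d12, and 3 were higher and 1 lower in PP, 16.7% in each beside 8.35% and 9.25% of all probes. Among them was the liver-type glutaminase Gls2, at least 4-fold higher in pLN d12 (adjusted p 0.00541) and at least 3.63-fold higher in PP (adjusted p 0.0115), and it was also at least 4.54-fold higher in TFR than in TFH cells of pLN d12 (adjusted p 0.00924). Against pLN d12 TFR cells, 3 enzymes were lower in PP TFR cells, 12.5% beside 11.1% of all probes. They were Shmt1 (-1.96), Bcat1 (-1.78) and Srm (-1.18). In GL7+ TFH cells Bcat1 (-1.60) and Odc1 (-1.19) were lower and Bcat2 (1.09) higher in PP, 12.5% beside 4.54%. Of the 20 cytosolic aminoacyl-tRNA synthetases, limma called 1 in 1 comparison, Gars, lower in PP than in pLN d12 TFR cells (-1.03, SE 0.16, adjusted p 0.00252). This was 5% of the synthetases, beside 11.1% of all probes. Their median log2 difference in TFR cells was -0.53, beside 0.003 over all probes. Between the tissues it was -0.29 in GL7+ TFH cells (0.03 over all probes) and -0.29 in Treg cells (-0.05). In TFR cells the median was -0.46 for the amino acid response, -0.43 for the enzymes and -0.04 for amino acid sensing. The tissues share no slide, and the cause of these shifts was not tested.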

How the data were processed

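RNA of 20 sorted samples was amplified, labelled with Alexa Fluor 555 and hybridised by the authors to 1 single-colour Agilent array each, scanned with Agilent Feature Extraction 10.7.3.1. The deposited scanner files hold intensity for each printed feature, background-subtracted by that software, and the authors' value table holds intensity averaged over features, normalised by quantiles, rescaled so that the 75th percentile was 1500, and floored at 20. Positions are those of the array annotation (mm9).

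From the scanner files, the geometric mean over the 4 features of each of 39429 probes was taken, leaving out flagged outliers, features beyond the authors' interquartile range limit and those with a pixel coefficient of variation above 0.5, followed by quantile normalisation, the same scaling and floor, and log2. Precision is limited by the number of arrays and by background. Each array detected 43.0% to 58.0% of its probes, the median local background was 24 to 78 except on the second pLN d12 TFR array (268), and the lowest detected intensity was 20 to 144. Replicate arrays correlated with r of 0.955 to 0.986 across tested probes, which are not independent. The design text describes independent experiments of pooled mice, 3 for pLN d12 and 2 for pLN d25, of which 2 arrays and 1 array per group are analysed here, and p-values measure the spread between these arrays. Replicate numbers follow the order of deposition.

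A mean for each of 12 groups was fitted to 20 arrays (limma 3.58.1 in R 4.3.3, 8 residual degrees of freedom, d25 groups of 1 array assumed to vary like the others) over 22264 probes, with two-sided p-values adjusted by the Benjamini-Hochberg method over all of them. The fit was tested on simulated data. Where a group was below background, "at least" folds set it to the lowest detected intensity of its arrays. Levels are not compared between probes. Alternatives were the authors' values, scaling without quantile normalisation, normexp background correction, no detection filter, slide as fixed or random block, only the compared groups, an unpaired t-test on log2 values (the study's methods name it on arrays for GL7- against GL7+ TFH cells, and analysis of variance with Tukey's test, not run here, between cell types), the mean over probes of a gene, and leaving out slide 4 or single arrays. Carriers, lists and the rule for named genes (18 carriers, each called carrier and the 3 largest called changes of the other lists) were chosen with earlier results of these data known. Not every called gene of the other lists that the rule covers is printed. For 60 of 63 genes the RefSeq symbol matched by accession was that of the annotation. Promoters are from RefSeq (GRCm38.p6).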

Additional observations from a re-analysis of the deposited data

How the results depend on the processing

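No carrier named as called turned its direction under any alternative. The numbers called in the 12 comparisons and by the F test were within 1.5 times the reported ones in 127 of 188 alternatives. These include comparisons with 0 reported calls, where an alternative that also gave 0 was counted as within. The figure therefore does not measure how often a reported call was kept. An unpaired t-test with Benjamini-Hochberg adjustment called 0 carriers in each of the 10 comparisons between 2 groups, and at an unadjusted p under 0.05 it found 6 between TFH and naive T cells, 6 between TFR and Treg cells of PP and 9 between TFR cells of PP and pLN d12. With only the compared groups in the fit, the number was 4 for TFH against naive T cells, 2 for TFR against Treg cells of pLN d12, 2 for TFR cells of PP against pLN d12, and 0 for Treg against naive T, TFR against TFH of pLN d12, TFR against Treg of PP, and GL7+ TFH and Treg cells of PP against pLN d12. With slide as a fixed or a random block, 5 carriers were called for TFR against TFH cells of pLN d12, 1 between TFR and GL7+ TFH cells of PP, 1 between GL7+ and GL7- TFH cells and 4 for the tissue difference of the Treg to TFR step, and the random block (correlation 0.742) called 0 between Treg cells of the tissues. Calls gained under the fixed block were Slc6a20a (-1.09) for TFH and Slc43a3 (1.41) for Treg against naive T cells, Slc6a13 (1.27) for TFR against Treg and Slc6a9 and Slc36a3 for TFR against TFH cells of pLN d12, and Slc7a7 (1.44) for TFR against Treg cells of PP. A fixed slide block cannot compare PP with pLN, which share no slide. Normexp gave 1 for Treg against naive T cells, 2 for TFR against Treg cells of pLN d12, 4 for the same in PP, 1 for TFR against GL7+ TFH cells of PP, and 1 each for GL7+ TFH and Treg cells of PP against pLN d12. No detection filter gave 1 for Treg against naive T cells, 2 for TFR against Treg cells of pLN d12 and 1 for GL7+ TFH cells of PP against pLN d12. Scaling without quantile normalisation gave 1 for GL7+ against GL7- TFH cells and 1 for Treg cells of PP against pLN d12. Leaving out slide 4 leaves 1 array in each PP group. Fewer carriers were then called for TFR against Treg cells of PP, for GL7+ TFH cells of PP against pLN d12 and by the F test.

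Leaving out 1 array at a time gave 7 to 8 for TFH against naive T cells, 1 to 2 for Treg against naive T cells, 2 to 2 for TFR against Treg cells and 2 to 4 for TFR against TFH cells of pLN d12. In PP it gave 3 to 8 for TFR against Treg cells, 0 to 0 for TFR against GL7+ TFH cells and 0 to 1 for GL7+ against GL7- TFH cells. PP against pLN d12 gave 0 to 1 in GL7+ TFH, 1 to 2 in Treg and 2 to 7 in TFR cells, the tissue difference of the Treg to TFR step and day 25 against day 12 gave 0 to 0, and the F test 7 to 11. The labels carry no replicate numbers that pair samples, so the main fit did not pair them. Arrays of the same slide were compared through the slide block above, which changed these calls. Levels under the lowest detected intensity are not resolved.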
